A study of Carica papaya with 7 samples.

Results

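The genes described here are the 7 genes of the plastid genome that encode proteins of the large ribosomal subunit and lie outside the inverted repeat: rpl14, rpl16, rpl20, rpl22, rpl32, rpl33 and rpl36. They were chosen as the probe sets in the array's numbered range for the plastid genome whose gene symbol starts with rpl. The genes rpl2 and rpl23 of the inverted repeat were left out. No signal entered this rule, but earlier results of these data were known when the 7 genes were chosen. They are 7 of the 22746 probe sets of the Affymetrix ATH1 GeneChip that are not controls, and 7 of the 77 probe sets in this range that carry the symbol of 1 plastid gene. A further probe set of the range has an rpl symbol beside a second gene and was left out. The chip was designed for Arabidopsis and was hybridized here with labelled cRNA from the pulp of papaya (Carica papaya cv. 'Golden'), so that a signal depends on how well each Arabidopsis probe binds the papaya transcript as well as on how much transcript there is. The groups were unripe pulp (3 columns) and ripe pulp (3 columns), with 12 fruits pooled for each sample. The fruit were picked around 150 days after anthesis, when the peel began to turn yellow, and ripe samples were taken later in the same ripening. By the study's methods, fruit of 1 unripe and 1 ripe sample came from an earlier harvest than the rest. An array hybridized with papaya genomic DNA is not analysed here.

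Plastids keep their own bacterial-type ribosomes, which translate the proteins of the photosystems, the ATP synthase and a few other complexes from plastid transcripts. The proteins of the large subunit come from 2 genomes: a minority from rpl genes in the plastid, and the rest from nuclear genes whose products are imported. In a ripening fruit green chloroplasts turn into chromoplasts, which store carotenoids and dismantle the photosynthetic membranes. Several of the plastid rpl genes stand in a cluster that resembles the ribosomal protein operons of bacteria and are transcribed together.

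Within each stage the columns held only 1 independent set of values. For all 22810 probe sets, and within the rounding of the values, the signals of replicate 2 equalled those of replicate 1 multiplied by 1.19, in unripe and ripe pulp alike, and those of replicate 3 equalled the average of the other two. The differences between the stages, calculated as mean log2 ripe signal minus mean log2 unripe signal, therefore have neither a replicate check nor a standard deviation or p-value. Which harvest or fruit the single set of values of a stage stands for cannot be told from them. Less RNA per plastid and fewer plastids or green cells in the pulp cannot be told apart. As a measure of dim signal, the 27 Bacillus subtilis control probe sets, which match no plant gene, reached 8.22 at most, and their log2 differences ran from -0.28 to 0.12. The median signal over all probe sets was 4.20 in each stage. None of the 8 marker genes fixed for green tissue or chromoplasts had a probe set under its symbol, and of the chlorophyll-binding genes LHCB4.1, LHCB4.2 and LHCB4.3, chosen after their values were seen, none was above those controls, with log2 differences of -0.30, -0.11 and 0.099.

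Of the 7 genes, 6 had a lower signal in ripe than in unripe pulp and rpl16 alone a higher one, while 51.3% of all probe sets had a lower one. The fold limit of the study's own methods, a log2 difference of 0.322 in either direction, is called the limit in what follows. Past it, 4 of the 7 were lower (rpl36, rpl14, rpl22 and rpl33) and 0 higher, while 3.53% of all probe sets were lower and 3.57% higher. The median log2 difference was -0.37, against -0.0047 over all probe sets. Scaled to the bioB, bioC and bioD hybridization controls, which were themselves lower in the ripe columns, every probe set moves up by 0.60 and the median of the array to 0.60, so that rpl36 and rpl14 alone keep a value below 0 while the distance of the 7 genes from the array stays the same. The signals of rpl14, rpl36 and rpl20 were above the Bacillus controls in both stages, and those of rpl22, rpl33, rpl32 and rpl16 in neither. The 3 brighter genes had a median of -0.62 and the 4 dim ones of -0.22. Elsewhere a probe set counts as above the Bacillus controls, or bright, where its mean log2 signal over both stages is above the brightest of them. Of all such probe sets 8.40% were lower and 7.71% higher past the limit, and of the rest 3.06% and 3.17%.

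**Figure D1:**
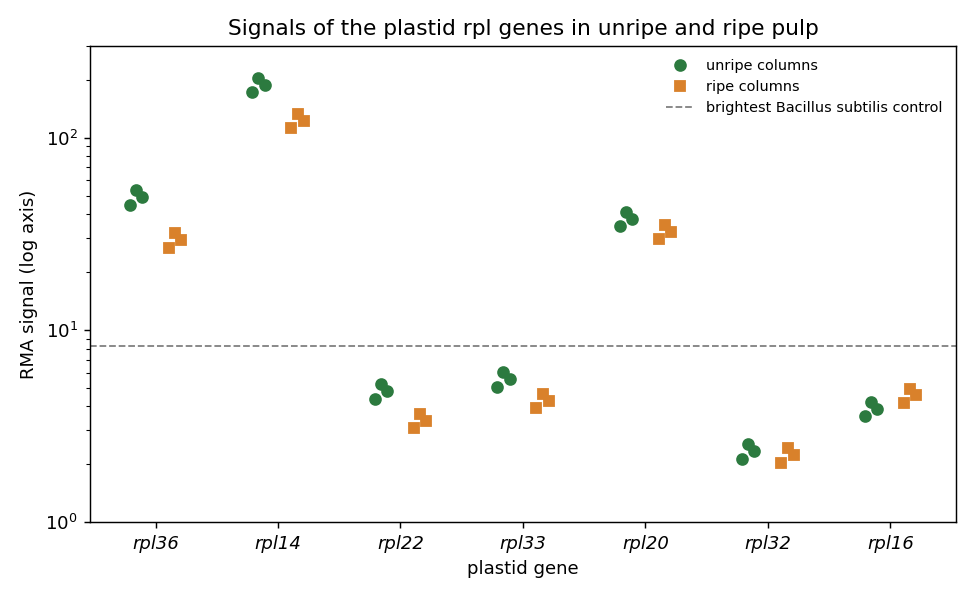
RMA signal on a log axis of the 7 plastid rpl genes, with 1 circle per unripe and 1 square per ripe column; the dashed line is the brightest Bacillus subtilis control at 8.22. rpl14, rpl36 and rpl20 lie above the line in both stages, the other 4 genes below it, and the 3 columns of a stage differ by a constant factor.

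rpl36 encodes the smallest protein of the large subunit, which binds zinc in bacteria. Its signals were 44.7, 53.2 and 49.0 in the unripe columns and 26.8, 31.9 and 29.3 in the ripe columns. Since the columns of a stage differ only by the factor of 1.19, or 0.25 on the log2 scale, the stages separate wherever the difference exceeds 0.25, and their separation adds nothing to it. The log2 difference was -0.74, or 1.67 fold lower in ripe pulp, the largest of the 7, and only 19 probe sets of the whole array had a lower value. Of those, 9 were other plastid genes.

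rpl14 encodes a protein that in bacteria lies at the face of the large subunit that meets the small one. Its probe set was the brightest of the 7, at 172.0, 204.7 and 188.3 in the unripe and 111.6, 132.8 and 122.2 in the ripe columns. The difference was -0.62, or 1.54 fold lower, and 46 probe sets had a lower value. Under quantile normalization it was -0.36. rpl14 and rpl36 were the only members lower past 1.5 fold, a limit that 0.268% of all probe sets passed in that direction, and no member passed 2.0 fold, which 0.0264% did.

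rpl20 encodes a protein needed early in the assembly of the bacterial large subunit, and the gene is essential in tobacco plastids. It was at 34.5, 41.1 and 37.8 in the unripe and 29.6, 35.2 and 32.4 in the ripe columns. The log2 difference was -0.22, or 1.17 fold lower, and 9.84% of all probe sets had a lower value. It lay within the range of the Bacillus controls, but these were all dimmer than rpl20, at 8.22 at most.

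rpl22 encodes a protein that lines the exit tunnel for the nascent chain in bacteria, and it is also essential in tobacco. Its signals were 4.37, 5.21 and 4.79 in the unripe and 3.09, 3.67 and 3.38 in the ripe columns, all below the brightest Bacillus control. The difference was -0.50, or 1.42 fold lower. rpl33, whose loss tobacco tolerates except in the cold, was at 5.06, 6.02 and 5.54 in the unripe and 3.91, 4.65 and 4.28 in the ripe columns. Its difference of -0.37, or 1.29 fold lower, is the one nearest to the limit: without ripe replicate 1 it was -0.31, without unripe replicate 2 likewise -0.31, and scaled to the cre hybridization controls -0.320, each just short of the limit. Each of these settings shifts every probe set by the same amount. They moved the median of the array to 0.059, 0.057 and 0.048, and the distance of rpl33 from it stayed the same. With 16 added to each signal, both dim genes lost their place past the limit, rpl22 at -0.10 and rpl33 at -0.087. In the deposited values rpl33 is also the middle value of the 7, so that the median of the group is its own. With 16 added the middle value was that of rpl22 (-0.10), and under quantile normalization that of rpl14 (-0.36).

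rpl32, an essential gene in tobacco and 1 that has moved to the nucleus in some plants, had the lowest signals, at 2.14, 2.55 and 2.34 in the unripe and 2.03, 2.42 and 2.23 in the ripe columns. Over the whole array only 0.224% of probe sets had a lower unripe signal. The log2 difference of -0.074 comes from signals at the bottom of the array, where a transcript that binds the Arabidopsis probes poorly and one that is scarce cannot be told apart. rpl16 encodes a protein near the site where the tRNA is accommodated in bacteria, and in most land plants the gene has an intron. Its signals were 3.56, 4.23 and 3.89 in the unripe and 4.17, 4.96 and 4.56 in the ripe columns. The difference of 0.23 was above the highest Bacillus control (0.12) but within the limit, and both stage signals were close to the median probe set.

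The order of these genes along the plastid genome was read from the RefSeq annotation of papaya (assembly ASM5485532v1) and was not used in choosing them. rpl36, rpl14, rpl16 and rpl22 belong to the ribosomal protein cluster that runs from rpoA, the alpha subunit of the plastid RNA polymerase, to rpl2 and rpl23 at the edge of the inverted repeat. infA, the gene of a translation initiation factor that lies between rpl36 and rpl14, is listed there as a pseudogene. Of the 9 genes of the cluster with a probe set, 7 were lower in ripe pulp, 5 of them past the limit, and the median was -0.50. rpl23 (-1.25) and rpl2 (-0.64), both bright, were at the lower end with rpl36 and rpl14. rpoA, at the other end and also bright, was at 0.057, a gap of 0.80 to rpl36. Of the 5 genes of the cluster above the Bacillus controls, rpoA was the only one not lower past the limit.

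rpl14 and rpl16 stand side by side in the cluster, the bright rpl14 at -0.62 and the dim rpl16, below the brightest Bacillus control in both stages, at 0.23. Next to rpl16, rps3 was at -0.13, followed by rpl22 at -0.50 and rps19 at -0.27, and all of these from rpl16 to rps19 were below the brightest Bacillus control. Multiplying a column by a constant, as the scalings to controls do, leaves the gaps between neighbours as they are.

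rpl33 and rpl20 stand on another stretch, with rps18 between them. rpl33 and rps18 had almost the same difference (-0.37 each), both from dim signals. rpl20 was at -0.22, psaJ, a small subunit of photosystem I before rpl33, also at -0.22, and clpP, a protease subunit beyond rpl20 and rps12, at -0.081. All 5 genes with 1 probe set on this stretch were lower, and the bright ones (psaJ, rpl20 and clpP) stayed within the limit. rpl32 stands apart in the small single copy region between ndhF (0.077) and ccsA (-0.0040), and none of these 3 genes was above the Bacillus controls.

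**Figure D2:**
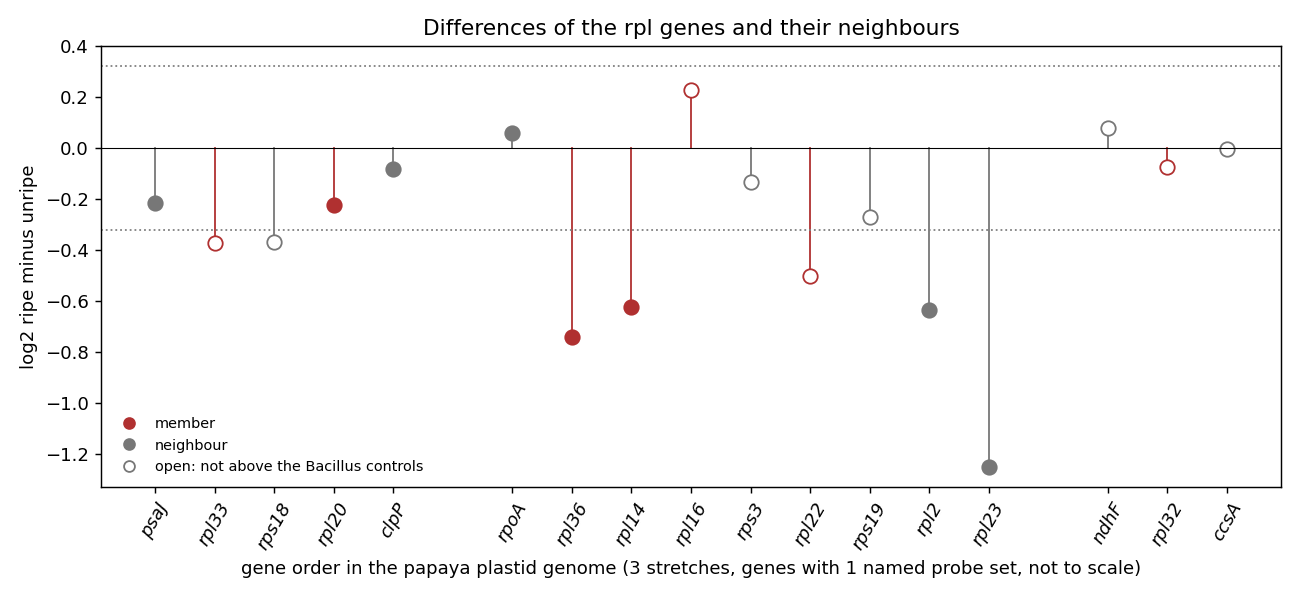
Log2 ripe minus unripe signal of the rpl genes (red) and their neighbours (grey) in the gene order of the papaya plastid genome, 3 stretches not to scale; filled points are above the Bacillus controls, dotted lines mark a log2 difference of 0.32, and only genes with 1 named probe set are drawn. rpl36, rpl14, rpl2 and rpl23 are the lowest bright genes, while rpoA lies at 0.057.

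The plastid genes for the small ribosomal subunit, as the most similar group, had 8 probe sets outside the inverted repeat. Of these 6 were lower in ripe pulp, 3 of them past the limit, and 1 was higher past it. The median was -0.20, and the values ran from -1.01 (rps15) to 0.37 (rps14). The 4 genes of the plastid RNA polymerase had a median of -0.40, from rpoB at -0.78 to rpoA. Of all 70 other plastid probe sets 31 were lower past the limit and 5 higher, with a median of -0.26. Their values ran from -1.25 (rpl23) to 1.44 (ndhB), the lowest and highest of all probe sets that are not controls. The rpl genes had 4 of 7 lower past the limit and a median of -0.37. Their values lay within that range, as those of any probe set would, and the difference between these groups was not tested. The 50 other plastid probe sets above the Bacillus controls had a median of -0.40 and the 20 not above them one of -0.10. The part of signal level in these differences was not tested.

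Of the nuclear genes for proteins of the plastid large subunit, 7 of the 27 on the list could be matched to a probe set. Past the limit 0 were lower and 1 was higher, and the median log2 difference was 0.056. The highest was AT1G29070, the gene for protein L34 of this ribosome, at 0.35, its signal going from 6.32 in unripe to 8.06 in ripe pulp. The genes for L19, AT4G17560 and AT5G47190, were at 0.26 and -0.19. AT2G43030 (L3), AT4G01310 (L5), AT3G54210 (L17) and AT5G65220 (L29) lay between -0.044 and 0.076. None of the 7 was above the Bacillus controls in either stage, as was the case for rpl22, rpl33, rpl32 and rpl16. Of the nuclear genes for the small subunit 3 of 13 were matched. Of them AT3G13120, for protein S10, was above the controls and lower in ripe pulp, with signals of 28.8 and 21.4 and a difference of -0.43, AT1G64510 (S6) was at -0.20 and AT5G24490 at 0.051.

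**Figure D3:**
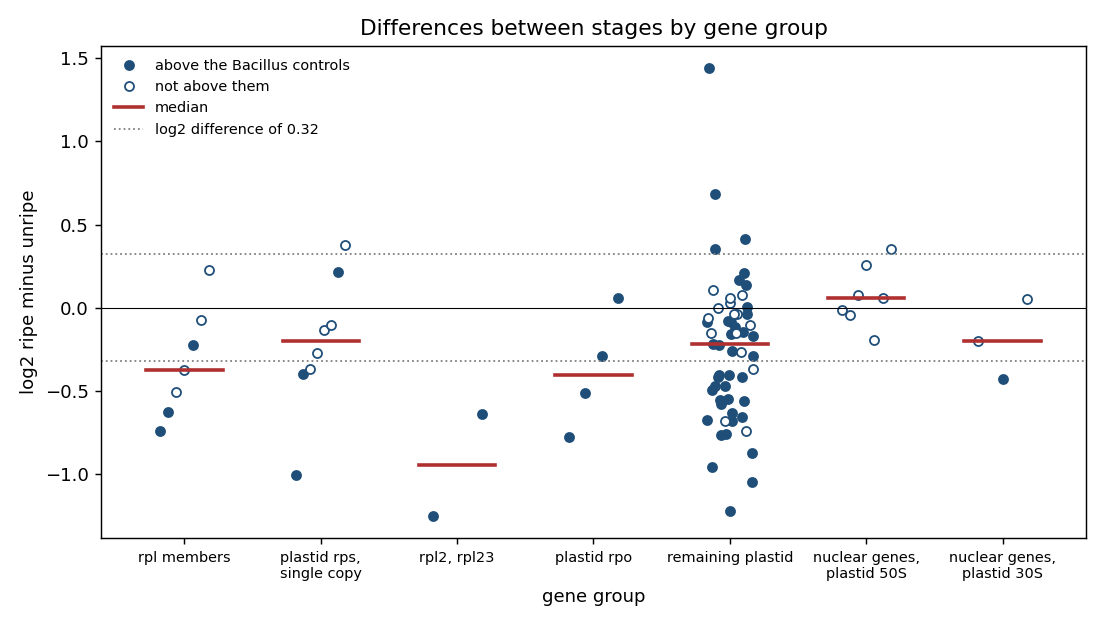
Log2 ripe minus unripe signal of single probe sets by gene group, with the median as a red bar, dotted lines at a log2 difference of 0.32 and filled points for probe sets above the Bacillus controls. The 7 rpl genes have a median of -0.37, the nuclear genes for the plastid large subunit one of 0.056, and the remaining 56 plastid probe sets one of -0.22.

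The stage signals of a gene were also set beside those of all other probe sets with 1 symbol, by the distance over log2 unripe and log2 ripe signal. This likeness rests on 2 values and on how bright each probe set is. For rpl20 the nearest were all plastid genes: psbA, of the photosystem II core, at a distance of 0.040, petB of the cytochrome b6f complex at 0.077 and petL at 0.18. For rpl36 they were ndhC (0.16), psbJ (0.21) and AT3G44140 (0.35), and for rpl14 psbF (0.18), AT2G07741 (0.32) and ycf4 (0.54). Within a distance of 0.25 rpl14 had 1 such probe set, rpl36 had 2 and rpl20 had 4. The dim genes had 256 (rpl32), 410 (rpl22), 870 (rpl33) and 2335 (rpl16), so that their nearest probe sets, listed first as AT2G15830, AT1G23640, AT4G21450 and AT2G46050, say little.

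The sign of a difference depends on what the columns are scaled to, whereas the distance of a gene from the median of the array does not. The 14 probe sets of the bioB, bioC and bioD controls, which are added to each hybridization, had a median log2 difference of -0.60 between the stages, the 4 of cre one of -0.053, and the Arabidopsis 25S rRNA control was at 0.072. Scaled to bioB, bioC and bioD the differences were -0.14 for rpl36, -0.019 for rpl14, 0.10 for rpl22, 0.23 for rpl33, 0.38 for rpl20, 0.53 for rpl32 and 0.83 for rpl16, beside 0.60 for the median of all probe sets. The median of the 7 genes was 0.37 below that of the array, as in the deposited values. Scaled to cre or to the 25S rRNA control 6 of the 7 were lower, as in the deposited values. The spread between rpl36 and rpl16, of 0.97 on the log2 scale, is the same under each of these scalings.

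**Figure D4:**
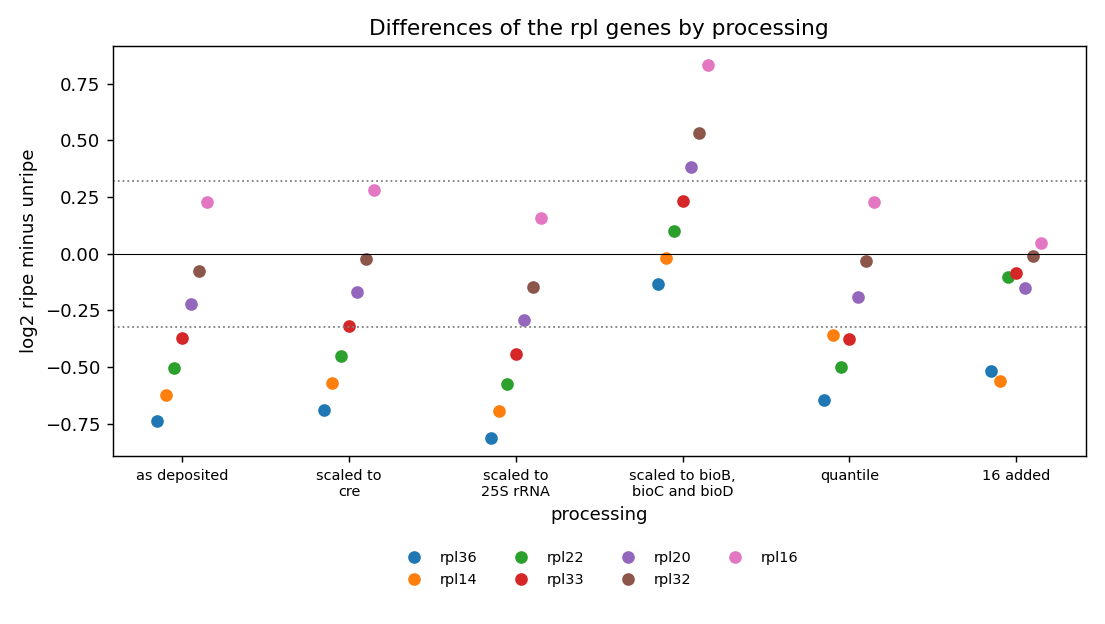
Log2 ripe minus unripe signal of the 7 rpl genes as deposited, scaled to 3 kinds of control, after quantile normalization and with 16 added to each signal; dotted lines mark a log2 difference of 0.32. Under scaling to bioB, bioC and bioD, which moves the median of all probe sets to 0.60, 5 of 7 genes are above 0, and under the other settings drawn 6 of 7 are below 0.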

How the data were processed

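The deposited values are intensities, 1 per probe set and array. According to the study's methods the authors scanned the arrays with MAS, applied RMA in GeneSpring and masked probes by genomic DNA hybridization; the sources used here do not state whether the deposited intensities, which cover all probe sets, include the mask or a division by the DNA signal. Arrays give no depth, and the single set of values per stage limits the precision. The statistical tests named in the methods need a spread between replicates and were not run. Signals were floored at 1 (none was lower), taken to log2 and averaged by stage, and counts leave out the 64 control probe sets. Genes were named from GEO's platform annotation where a probe set had 1 symbol (13523 did). The members and lists were chosen with earlier results of these data known. Text names all 7 members, the extremes of each comparison group and the nearest probe sets. That last rule was to include the genomic DNA signal, which was not analysed here, and so used the 2 stage values alone. Nuclear genes were matched by identifier. Alternatives were the scalings, quantile normalization, median centring, the ratio of mean linear signals, a pseudocount of 16, other fold limits and leaving out columns; the members above the Bacillus controls, the split of probe sets by their mean signal against those controls and single replicate numbers were added after seeing the data. The script was tested on simulated data. Python 3.11.15, numpy 2.4.6, pandas 2.3.3 and matplotlib 3.10.9 were used.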

Additional observations from a re-analysis of the deposited data

How the results depend on the processing

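With no replicate spread, a value counted as moved when it shifted by more than the standard deviation of the log2 columns of a stage, 0.126, which reflects their constant factor. The median log2 difference of the 7 rpl genes, -0.37 as deposited, was 0.23 when scaled to bioB, bioC and bioD, a sign opposite to the deposited one, which follows from adding 0.60 to every value, the median of all probe sets included; rpl33 (0.23), rpl22 (0.10), rpl20 (0.38) and rpl32 (0.53) changed sign with it. The median was -0.10 with 16 added to each signal and -0.62 over the 3 genes above the Bacillus controls. The count of genes lower past the limit of the report, 4 as deposited, was 0 when scaled to bioB, bioC and bioD, 2 with 16 added, 2 past 1.5 fold, 0 past 2.0 fold and 2 among the genes above the Bacillus controls. Leaving out columns gave medians from -0.44 to -0.31 and counts from 3 to 4. This range reflects the constant factor between columns, which shifts all probe sets alike, and is no measure of replicate spread. The median of the 7 genes stayed 0.37 below that of the array. Median centring, the ratio of mean linear signals and scaling to cre or to the 25S rRNA control kept the direction of all 7 genes. Single replicate numbers gave the same differences by construction, because the factor of 1.19 holds in both stages, and so are no check. No paired analysis was possible because the columns of a stage are proportional to each other. The settings for the genomic DNA array were not run.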
